A study of Mus musculus with 620 samples.

Results

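The genes described here encode the standard subunits of the proteasome, 2 tissue-specific variants of them (Psma8 and Psmb11) and the chaperones that share their symbols. They were chosen by symbol alone, as every row of the LT, YA and ST count tables named Psma, Psmb, Psmc or Psmd followed by a number, with the inducible subunits Psmb8, Psmb9 and Psmb10 left out. This gave 36 genes in each table, of 24850 rows in the LT table and 40840 in each of the YA and ST tables. They comprise 8 genes of the alpha ring (Psma1 to Psma8), 8 of the beta ring (Psmb1 to Psmb7 and Psmb11), 6 of the ATPase ring (Psmc1 to Psmc6), 3 grouped here as the base scaffold (Psmd1, Psmd2 and Psmd4), 8 of the lid (Psmd3, Psmd6, Psmd7, Psmd8, Psmd11, Psmd12, Psmd13 and Psmd14) and 3 assembly chaperones (Psmd5, Psmd9 and Psmd10). Of the base scaffold group, Psmd1 and Psmd2 are scaffold genes, while Psmd4 is a ubiquitin receptor counted with them.

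The study measured poly(A) RNA in bulk mouse tissues from 3 cohorts, 620 libraries of 72 mice in 11 conditions. The LT cohort (284 libraries, 25 mice, 12 tissues) compared young with aged controls, and the latter with aged mice that received exenatide, a peptide agonist of the GLP-1 receptor. The YA cohort (128 libraries, 16 mice, 8 tissues) held controls and exenatide-treated mice. The ST cohort (208 libraries, 31 mice, 7 tissues) comprised young and aged controls, aged mice on exenatide or on rapamycin (an inhibitor of the kinase mTOR), and aged mice with a hypothalamic knockdown of the GLP-1 receptor, with and without exenatide. The labels used here spell out neither the cohort names nor the mice's ages, sex, strain, doses, length of treatment or the knockdown's method and control construct. Hypothalamus of the ST cohort was not analysed here, and Glp1r did not pass 2.76 CPM (read counts scaled to TMM-adjusted library totals) in any of the 208 ST libraries, so the knockdown itself was not checked. Total counts per library were 15190156 to 33786473 in LT, 14980061 to 34148943 in YA and 14643153 to 56204841 in ST. In bulk tissue, fewer cells of a type and less RNA per cell cannot be told apart. The labelled tissues carried their defining markers above 1 CPM in all libraries except 2 LT colons, where the colonocyte gene Car1 was at or below it, and 1 YA hypothalamus, where Agrp was at 0.845 CPM. Among ST white blood cells, 3 libraries stood apart in their scaling factor, which sets each library against the others: A44 (0.285), E9 (0.487) and E20 (1.47).

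The proteasome is the large protease that degrades proteins tagged with ubiquitin. Its core particle is a barrel of alpha and beta rings, with the proteolytic sites inside on the beta subunits Psmb5 (chymotrypsin-like), Psmb6 (caspase-like) and Psmb7 (trypsin-like). The regulatory particle caps the barrel: its base holds the ATPase ring that unfolds substrates and its lid removes ubiquitin. Subunits are needed in fixed proportions, and their genes are known to be induced together by the transcription factor Nfe2l1 when proteasome activity falls. Psma8 is an alpha subunit of the testis and Psmb11 a beta subunit of the thymus.

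Because the members' transcripts moved together in several tissues, the sequences before their transcription starts are shown for some members on which the results turn. These are the alpha-ring gene Psma7 and the catalytic genes Psmb5 and Psmb6, among the leading genes of the hippocampus. The beta-ring gene Psmb4, which led the white blood cells, is shown with them. Each is the stretch of 250 bases before the start, 5′ to 3′ on the gene's strand, taken from RefSeq on GRCm38.p6. Capitals mark a match, on either strand, to TGANNNNGC (the core of the antioxidant response element, to which Nfe2l1 binds) or to CCAAT (the box bound by NF-Y). Psma7 lies on the minus strand at chr2:180042465-180042714, Psmb5 on the minus strand at chr14:54617996-54618245, Psmb6 on the plus strand at chr11:70525107-70525356 and Psmb4 on the minus strand at chr3:94886959-94887208.
Psma7: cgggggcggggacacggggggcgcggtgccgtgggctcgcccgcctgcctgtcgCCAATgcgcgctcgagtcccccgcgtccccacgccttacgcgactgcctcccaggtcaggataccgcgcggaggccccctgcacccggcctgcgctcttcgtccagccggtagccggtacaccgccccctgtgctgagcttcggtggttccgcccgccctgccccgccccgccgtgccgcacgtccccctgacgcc
Psmb5: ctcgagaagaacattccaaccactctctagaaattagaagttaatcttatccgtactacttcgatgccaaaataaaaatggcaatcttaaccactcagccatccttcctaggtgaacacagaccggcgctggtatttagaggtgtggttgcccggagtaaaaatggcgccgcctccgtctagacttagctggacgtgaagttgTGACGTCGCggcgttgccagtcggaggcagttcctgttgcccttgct
Psmb6: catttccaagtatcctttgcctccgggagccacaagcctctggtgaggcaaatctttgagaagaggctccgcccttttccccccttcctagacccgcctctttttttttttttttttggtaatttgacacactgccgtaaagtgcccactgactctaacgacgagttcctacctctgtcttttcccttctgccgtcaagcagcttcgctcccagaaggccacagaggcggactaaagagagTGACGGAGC
Psmb4: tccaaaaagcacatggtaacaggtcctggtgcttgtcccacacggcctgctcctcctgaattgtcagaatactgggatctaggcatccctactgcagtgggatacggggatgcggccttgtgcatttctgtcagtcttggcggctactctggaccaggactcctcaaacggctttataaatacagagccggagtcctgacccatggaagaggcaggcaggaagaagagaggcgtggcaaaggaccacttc
Psma7 held a CCAAT that began 196 bases before the start. Psmb5 held TGACGTCGC 47 bases before the start and Psmb6 held TGACGGAGC 9 bases before it. The Psmb4 window held neither motif. Of the 36 members, 29 (not including the catalytic gene Psmb7) had an entry in the promoter table, with 31 starts between them. TGANNNNGC was found in 13 of these 31 windows (41.9%) and in 11563 of all 32851 windows of the same length (35.2%). CCAAT was found in 12 (38.7%) against 11120 (33.8%), and both motifs in 3 (9.68%) against 3896 (11.9%). A match describes the letters of the window and not a binding site.

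Over the 27 combinations of cohort and tissue, 34 of the 36 members passed the filter on low counts in all of them. Psma8 passed in 11 and Psmb11 in 1, the ST hippocampus, where it lay between 0 and 0.43 CPM. The mean of the 34 on the log2 CPM scale, after TMM scaling, is called the module mean. Differences between conditions were tested gene by gene with edgeR's quasi-likelihood F test over all genes of a tissue, and a gene was called at a Benjamini-Hochberg adjusted p below 0.05. Each fold change below is on the log2 scale with the standard error (SE) of the fit.

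Counted over tissues, edgeR called members in 8 of the 9 comparisons. The share called lay below that of all genes with LT age, LT exenatide, the knockdown alone and the difference between the exenatide responses. With age, 8 of 414 LT member tests were higher and 36 lower (10.6%, against 13.6% of all gene tests in either direction), and 28 of 242 ST tests were higher and 22 lower (20.7%, against 13.6%). With exenatide, 9 LT tests were higher and 10 lower (4.59%, against 4.92%), and 19 ST tests were higher and 6 lower (10.3%, against 8%). Rapamycin gave 22 higher and 23 lower in ST (18.6%, against 13.2%). The knockdown alone gave 4 higher and 2 lower (2.48%, against 3.27%), exenatide under the knockdown 14 higher and 2 lower (6.61%, against 4.94%), and the difference between the exenatide responses with and without the knockdown 5 lower (2.07%, against 2.41%). In YA mice edgeR called 0 of 274 member tests for exenatide and 0.631% of all gene tests. Of the member tests 25 were at an unadjusted p below 0.05, and DESeq2 called 1. By direction, the LT age share lay below that of all genes among the higher calls (1.93%, against 7.01%) and above it among the lower ones (8.70%, against 6.57%). The ST shares lay above those of all genes in both directions with age (11.6% higher, against 6.82%, and 9.09% lower, against 6.74%) and rapamycin (9.09% against 6.72%, and 9.504% against 6.497%). They lay above it among the higher calls, and below it among the lower ones, with exenatide (7.85% against 4.08%, and 2.48% against 3.92%) and with exenatide under the knockdown (5.79% against 2.55%, and 0.826% against 2.39%).

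Several of these totals rested on single animals. The LT exenatide total of 19 was 9 without B14, 11 without B16, B24 or B27, and 12 without B25 or B28. The ST age total of 50 was 31 without E23. The ST exenatide total of 25 was 16 without E23, 14 without E25 and 39 without E32. The rapamycin total of 45 was 26 without E13, 20 without E23 and 16 without E6. For the knockdown the 6 calls became 1 without E23, 2 without E30, E35 or E8, 3 without E13 or E29, 11 without E20 and 12 without E21. Without the libraries that stand apart in white blood cells, muscle and colon they became 25 (7 higher and 18 lower). The 5 calls for the difference between the exenatide responses became 8 without E13. The ST comparisons with age, exenatide, rapamycin and the knockdown share the same aged controls, and so do the LT comparisons with age and exenatide, so that a high or low aged control group enters each of them. Their values are therefore given side by side.

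**Figure D1:**
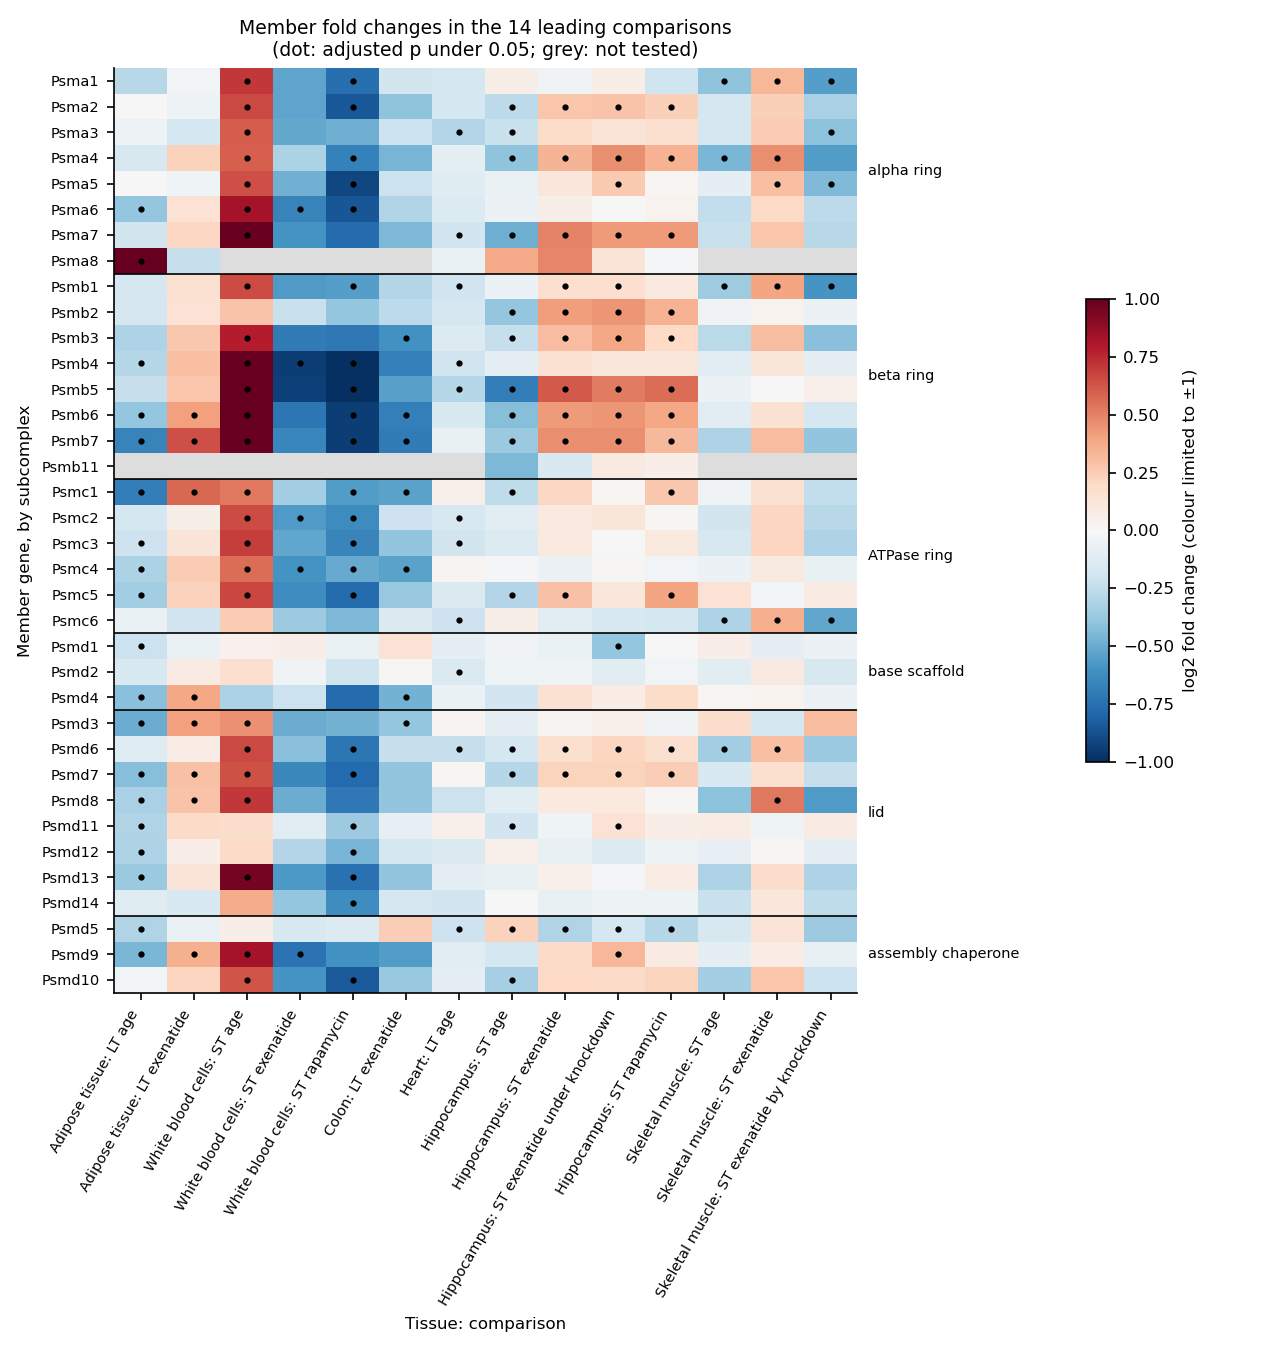
Log2 fold changes of the 36 members (vertical, ordered by subcomplex) in 14 comparisons and tissues with 5 or more called members (horizontal). Colour runs from lower to higher and is limited to 1 in size, a dot marks an adjusted p below 0.05, and grey marks a member that was not tested. In ST hippocampus the dots gather in the beta ring, and in ST white blood cells they cover most of the alpha and beta rings with age and rapamycin, but 1 of 7 genes in each ring with exenatide.

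In the ST hippocampus, aged controls had lower transcripts of the core particle than young controls, and aged mice given exenatide or rapamycin had higher ones than aged controls. With age 15 of 36 members fell and 1 rose (14.1% of all genes fell and 11.9% rose). The beta ring was lower most often, with 5 of 8 members and a median of -0.38, followed by 4 of 8 alpha, 2 of 6 ATPase and 3 of 8 lid genes. No gene of the base scaffold was called, and of the chaperones Psmd10 fell and Psmd5 rose. The median over members was -0.15, against -0.00 over all genes.

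Psma7, a subunit of the alpha ring, read 44.6, 45.5, 49.9, 44.9 and 46.5 CPM in the 5 aged controls and 66.2, 65.2, 66.0, 64.1 and 64.1 CPM in the 5 young controls. With exenatide it read 65.4, 65.7, 64.0, 67.4 and 63.4 CPM, and with rapamycin 62.8, 58.4, 64.1, 64.2 and 61.6 CPM. All 5 aged controls lay below every young, exenatide and rapamycin library. The log2 fold change was -0.49 ± 0.053 with age (adjusted p = 3.94e-08), 0.49 ± 0.053 with exenatide (adjusted p = 3.61e-08) and 0.43 ± 0.053 with rapamycin (adjusted p = 4.23e-07).

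Psmb5, the chymotrypsin-like subunit, read 58.44, 52.02, 40.97, 47.03 and 63.23 CPM in aged controls and 83.3, 88.4, 83.7, 82.8 and 83.2 CPM in young controls. It read 82.8, 82.4, 75.9, 83.9 and 76.2 CPM with exenatide and 74.3, 77.7, 80.2, 74.3 and 78.4 CPM with rapamycin. The aged controls again lay below all libraries of the other 3 groups, and were more spread than those. It fell by 0.69 ± 0.079 with age (adjusted p = 1.42e-07), rose by 0.62 with exenatide (adjusted p = 7.62e-07) and rose by 0.56 with rapamycin (adjusted p = 3.87e-06).

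The other catalytic subunits were also lowest in aged controls. Psmb6 lay at 36.9 to 48.7 CPM in aged controls, 56.2 to 61.4 in young controls, 55.3 to 60.9 with exenatide and 55.3 to 57.8 with rapamycin. Its fold changes were -0.43 ± 0.067 with age (adjusted p = 2.13e-05), 0.43 with exenatide (adjusted p = 1.87e-05) and 0.39 with rapamycin (adjusted p = 7.39e-05). Psmb7 lay at 58.7 to 76.9 CPM in aged controls, 81.1 to 88.6 in young controls, 86.2 to 96.0 with exenatide and 79.2 to 86.2 with rapamycin, with fold changes of -0.37 (adjusted p = 7.5e-05) and 0.46 (adjusted p = 3.09e-06), and of 0.32 with rapamycin. For both genes no aged control reached the range of the young, exenatide or rapamycin group.

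Exenatide raised 12 members of 36 and lowered 1 (14.2% of all genes rose and 14.4% fell), with 6 of the risen genes in the beta ring, where the median was 0.36. Rapamycin raised 12 and lowered 1 (14.1% of all genes rose and 13.5% fell), with 5 of the risen genes in the beta ring and 2 in the ATPase ring, among them Psmc5 (0.39, adjusted p = 0.000313). The counts of members lay at more than the background share, while the medians over members were small, 0.15 with exenatide and 0.09 with rapamycin, against 0.01 and 0 over all genes. Psmd5, a chaperone that helps assemble the ATPase ring, went the other way. It lay at 35.1 to 45.2 CPM in aged controls, 31.8 to 35.5 in young controls, 30.3 to 33.3 with exenatide and 30.9 to 33.5 with rapamycin. It rose by 0.23 ± 0.060 with age (adjusted p = 0.00479) and fell by 0.30 with exenatide (adjusted p = 0.000325). The groups did not overlap for 17 of the 36 members with age, where this held for 16.7% of all tested genes. It held for 15 members and 20.2% of all genes with exenatide, and for 13 members and 17.8% of all genes with rapamycin.

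Exenatide was also compared within knockdown mice, a contrast that uses none of the aged controls above. There 14 members rose and 2 fell (16.1% of all genes rose and 15.1% fell), with 6 of 8 beta-ring genes higher and a median of 0.42 in that ring. Psma7 read 43.3, 52.9, 41.71, 49.4 and 44.96 CPM in knockdown controls and 67.0, 59.7, 58.4, 62.8 and 64.1 CPM with exenatide and the knockdown, and rose by 0.43 (adjusted p = 3.35e-07). Psmb5 read 52.9, 58.6, 45.7, 51.2 and 49.6 CPM in knockdown controls and 77.6, 75.6, 64.4, 71.4 and 81.2 CPM with exenatide and the knockdown, and rose by 0.52 (adjusted p = 7.69e-06). In both genes every treated library lay above every knockdown control. Psmb7 rose by 0.46 (adjusted p = 2.65e-06) and Psmb6 by 0.44 (adjusted p = 8.99e-06). Groups did not overlap for 5 of the 36 members and for 17.1% of all tested genes, so members were apart no more often than other genes were. No member's response to exenatide differed between mice with and without the knockdown in this tissue by edgeR's interaction test, with 2 at an unadjusted p below 0.05 and 0 called by DESeq2.

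The scaffold gene Psmd1 fell by 0.39 with exenatide under the knockdown. It read 123 to 246 CPM in knockdown controls, where E8 was highest, and 113 to 130 CPM with exenatide added. It rose with the knockdown alone (0.39, adjusted p = 0.0293, where 3.26% of all genes rose), against 116 to 127 CPM in aged controls. It was the single member called for the knockdown in hippocampus. Without E8 its fold changes were 0.19 with the knockdown and -0.19 with exenatide under it, both called, while the call for the knockdown was lost without E13, E30 or E32 (adjusted p = 0.0815, 0.0597 and 0.0558).

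The module mean of the ST hippocampus was 5.82 ± 0.038 (SD, n = 5) in aged controls, 5.997 ± 0.02 (n = 5) in young controls, 5.97 ± 0.037 (n = 5) with exenatide and 5.95 ± 0.029 (n = 5) with rapamycin. It was 5.82 ± 0.095 (n = 5) in knockdown controls and 5.97 ± 0.037 (n = 5) with exenatide and the knockdown. The aged controls spanned 5.78 to 5.86 and the young controls 5.98 to 6.03, so the ranges were apart. Leaving out any 1 animal gave 12 to 15 falling members with age, 11 to 15 rising with exenatide, 10 to 13 rising with rapamycin and 11 to 18 rising with exenatide under the knockdown. Counting members 1 by 1, and both directions, 13 of 16 calls with age, 12 of 13 with exenatide, 10 of 13 with rapamycin and 12 of 16 with exenatide under the knockdown held whichever animal was left out.

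Other genes of the pathway, from a list of 38 tested genes that holds activators, receptors, chaperones, ubiquitin genes and regulators, fell in 15 cases and rose in 5 with age in this tissue. Sem1, the smallest subunit of the lid, averaged 11.8 CPM in aged controls and 26.3 CPM in young controls and fell by 1.16 ± 0.111 (adjusted p = 5.37e-09). It rose by 1.05 with exenatide (adjusted p = 3.15e-08), by 1.05 with rapamycin and by 1.03 with exenatide under the knockdown. Pomp, the maturation factor of the core particle, fell by 0.37 with age and rose by 0.42, 0.35 and 0.32 in the same 3 comparisons. Nfe2l1 fell by 0.35 with age. In the list 13 genes rose and 5 fell with exenatide, and 14 rose and 7 fell with rapamycin and again with exenatide under the knockdown. Among those that fell with exenatide were Ubqln2, a shuttle that carries ubiquitinated proteins to the proteasome (-0.47, and 0.28 with age), and Ecpas, an adaptor of the proteasome (-0.29, and 0.29 with age).

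Some properties of the libraries moved with the same groups. The ST hippocampus libraries held 22675480 to 26353365 counts in aged controls, 24356633 to 48433966 in young controls and 30094868 to 56204841 with exenatide. Counts were 23766639 to 51950569 with rapamycin, 23964289 to 28974307 in knockdown controls and 24533487 to 33584924 with exenatide and the knockdown. The slope of log2 CPM on transcript length (that of each gene's longest annotated transcript) is in log2 units per doubling of length. It was 0.01 to 0.09 in aged controls, -0.05 to -0.02 in young controls and -0.09 to -0.05 with exenatide. Between groups the slope differed by 0.095 with age, -0.127 with exenatide, -0.096 with rapamycin and -0.134 with exenatide under the knockdown. With each library's trend on length and GC content removed, 10 members fell with age, 8 rose and 4 fell with rapamycin and 12 rose and 5 fell with exenatide under the knockdown, while 7 rose with exenatide. Of these, 9 of the 10, 5 of the 8 risen, 10 of the 12 risen and 5 of the 7 were among the members called the same way without that removal. Of the neutrophil markers 3 of 4 tested rose with age, with summed levels of 1.46 to 9.09 CPM against 0.418 to 1.15 CPM in young controls, and 4 of 7 macrophage markers rose, with sums of 217 to 376 against 201 to 222 CPM. Their part in the result was not tested. In the LT hippocampus no member was called with age or exenatide by edgeR, with median fold changes of -0.06 and -0.10, 2 and 1 members at an unadjusted p below 0.05 and 0 called by DESeq2. In the YA hippocampus edgeR and DESeq2 called 0 with exenatide, and 0 had an unadjusted p below 0.05. There the module mean stood apart in the control A87 (5.97, against 6.54 to 7.02) and the exenatide mouse A88 (5.52, against 6.58 to 7.19). Its SD among YA controls was 0.346, so a difference like the 0.151 with ST exenatide could be missed.

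**Figure D2:**
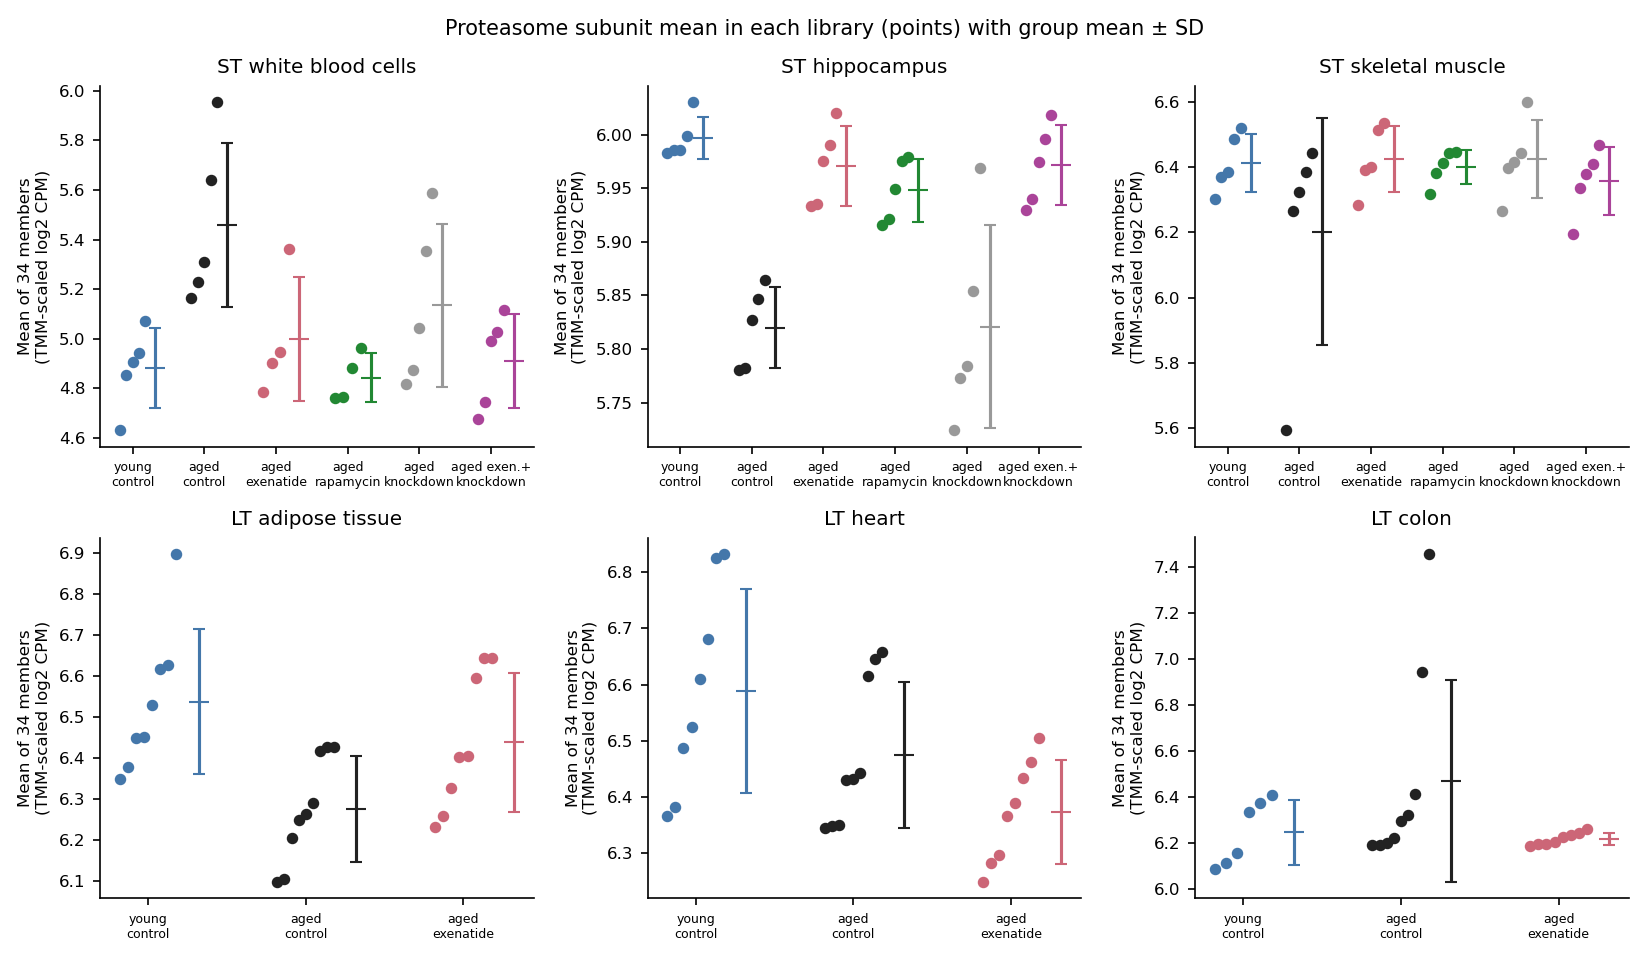
Module mean of 34 members in log2 CPM (vertical) by condition (horizontal) in 6 tissues, ST white blood cells, hippocampus and skeletal muscle and LT adipose tissue, heart and colon. Points are libraries and bars the mean ± SD. In ST hippocampus the aged controls lie at 5.78 to 5.86, below the young controls at 5.98 to 6.03, and in ST skeletal muscle 1 aged control lies at 5.59.

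In the ST white blood cells the direction was the opposite: aged controls had higher proteasome transcripts than young controls and than aged mice given rapamycin. With age 25 of 34 members rose (12.6% of all genes rose), 7 of 7 alpha, 6 of 7 beta, 5 of 6 ATPase, 5 of 8 lid and 2 of 3 chaperone genes, and none of the 3 base scaffold genes. The median over members was 0.65, against 0.03 over all genes. Psmb4, a non-catalytic beta-ring subunit, read 97.2, 188.5, 67.0, 68.2 and 55.2 CPM in aged controls and 41.5, 36.4, 49.6, 38.1 and 39.8 CPM in young controls. With rapamycin it read 53.07, 40.4, 43.87 and 42.02 CPM, and with exenatide 38.9, 48.7, 41.6 and 69.1 CPM. Aged controls lay above all young and all rapamycin libraries, and E23 was the highest.

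Psmb4 rose by 1.22 ± 0.252 with age (adjusted p = 0.00204). Psmb5 rose by 1.48 ± 0.335 (adjusted p = 0.00345), with 27.6 to 92.2 CPM in aged and 15.9 to 21.1 CPM in young controls. Psmb7 rose by 0.99 (adjusted p = 0.00289) and Psmb6 by 1.05 (adjusted p = 0.00361). For Psmb4 and the 3 catalytic subunits the groups did not overlap, as was so for 16 of the 34 members and 17.2% of all tested genes. The lid gene Psmd13 rose by 0.96 ± 0.202 (adjusted p = 0.00222), from 33.3 to 45.5 CPM in young controls to 52.1 to 126 CPM in aged ones, and the alpha-ring gene Psma6 rose by 0.84 (adjusted p = 0.00332).

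Rapamycin lowered 22 of 34 members in the white blood cells (6.32% of all genes fell), with a median of -0.70 against -0.06 over all genes. The called genes were 5 alpha, 5 beta, 5 ATPase, 6 lid and 1 chaperone gene. The alpha-ring gene Psma5 read 23.5, 17.4, 20.5 and 20.7 CPM with rapamycin and 36.9, 61.2, 31.14, 32.22 and 30.99 CPM in aged controls, with no overlap, and fell by 0.91 ± 0.208 (adjusted p = 0.00865). Psmb7 fell by 0.94 (adjusted p = 0.0124), Psmb5 by 1.27 (adjusted p = 0.022) and Psmb6 by 0.94. Exenatide lowered 5 of 34 (3.34% of all genes fell), with a median of -0.52 against 0.00. These were the ATPase genes Psmc4 (-0.60, adjusted p = 0.034) and Psmc2, together with Psmb4 (-0.94, adjusted p = 0.0371), Psma6 and the chaperone Psmd9 (-0.74).

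The knockdown lowered Psma1 (-0.69) and Psmb4 (-0.82) in white blood cells (3.31% of all genes fell). Without A44, E9 and E20, 18 of 34 members were called lower with the knockdown, where 7.08% of all genes were. The module mean was 5.46 ± 0.331 (SD, n = 5) in aged controls, 4.88 ± 0.162 (n = 5) in young controls, 4.999 ± 0.251 (n = 4) with exenatide and 4.84 ± 0.098 (n = 4) with rapamycin. The aged controls spread from 5.17 to 5.95, and E23 held the highest value. Without E23 the 25 risen members with age became 11, and without A42, A43 or E13 they became 15, 15 and 16. With rapamycin 2 of the 22 calls (Psma5 and Psma6) held whichever animal was left out, and with exenatide none of 5 did. The 22 members that fell with rapamycin became 2 without E23 or E6, 5 without E28, 9 without E13 and 10 without E36. The 5 that fell with exenatide became 0 without E13, E19, E23, E25 or E31, 10 without E7 and 15 without E32. With only the 2 conditions compared in the fit, 12 fell with rapamycin and edgeR called 0 with exenatide (19 at an unadjusted p below 0.05). With no filter on low counts these were 14 and 0 (21 at an unadjusted p below 0.05), and DESeq2 called 26 and 6. Leaving out A44, E9 and E20 gave 25 with age, 29 with rapamycin and 16 with exenatide. The shares of all genes in these alternative fits are not given here. The counts therefore show how the calls moved, and not how members compare with other genes.

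The inducible subunits and the other pathway genes moved in the same comparisons. Psmb8, Psmb9 and Psmb10, which replace the catalytic subunits in the immunoproteasome, rose with age by 1.283, 1.497 and 1.588 and fell with rapamycin by 1.268, 1.697 and 1.602. With exenatide Psmb10 fell by 1.11. Of the pathway list 13 genes rose and 2 fell with age, among them Pomp (1.26) and Sem1 (1.88), 1 rose and 11 fell with rapamycin (Pomp by 1.37 and Sem1 by 1.77), and 2 rose and 4 fell with exenatide. Rps27a, which encodes ubiquitin fused to a ribosomal protein, rose with age by 1.15 and fell by 1.16 with exenatide and 0.97 with rapamycin.

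Cell markers moved with the white blood cell groups. All 5 neutrophil markers rose with age, with a median fold change of 2.93 and summed levels of 1480 to 8680 CPM in aged controls, 604 to 1970 in young controls, 1160 to 3510 with exenatide and 1060 to 1890 with rapamycin. Summed erythroid markers spanned 91900 to 445000 CPM in aged controls and 158000 to 2200000 CPM in young controls, on the scaled libraries, where the low scaling factor of A44 raises its sum above its own total. The slope on transcript length was -0.31 to -0.02 in aged and 0 to 0.12 in young controls. Between groups it differed by -0.222 with age, 0.213 with exenatide and 0.254 with rapamycin. With the trend on length and GC content removed, 12 members rose with age, 5 fell with rapamycin and 1 fell with exenatide. The part of these in the result was not tested. In the LT white blood cells, 3 of 34 members rose with age (15.7% of all genes rose; Psma3 by 0.36, the ATPase Psmc6 and the lid gene Psmd11) and Psmc1 fell by 0.31 (12% of all genes fell), all with no overlap between 5 aged and 5 young controls. There the groups did not overlap for 8 of the 34 members and 19.5% of all tested genes.

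In the ST skeletal muscle, fewer members were called. With age 5 of 34 fell (9.23% of all genes fell), the core particle genes Psma1, Psma4 and Psmb1, the ATPase Psmc6 and the lid gene Psmd6, with a median over members of -0.16 against -0.00. Exenatide raised 7 (9.33% of all genes rose), Psma1, Psma4, Psma5, Psmb1, Psmc6, Psmd6 and Psmd8, with a median of 0.17 against 0.02. Both shares stood above the background in a tissue where 1 library stood apart. The module mean of the aged control E13 was 5.59, against 6.26 to 6.44 in the other 4, its slope on transcript length was 0.588, and its summed muscle fibre markers were 27900 CPM, against a median of 80600 CPM over the aged controls. Fibre marker sums lay at 59000 or above in the young and exenatide groups.

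Psma1, an alpha-ring subunit, read 44.5, 56.8, 53.4, 62.4 and 59.6 CPM in aged controls, 69.6, 71.32, 78.97, 66.47 and 79.4 CPM in young controls and 71.6, 79.3, 64.5, 67.7 and 64.8 CPM with exenatide. Aged controls lay below both other groups, with E13 lowest. It fell by 0.40 ± 0.094 with age (adjusted p = 0.00389) and rose by 0.33 with exenatide (adjusted p = 0.015). Psmc6, a subunit of the ATPase ring, read 102.7, 90.6, 89.2, 97.2 and 99.0 CPM in aged controls, 133, 137, 118, 112 and 116 CPM with exenatide and 116, 114, 129, 104.3 and 130 CPM in young controls. It fell by 0.31 with age (adjusted p = 0.0139) and rose by 0.36 with exenatide (adjusted p = 0.00498), with no overlap, and here E13 was the highest aged control.

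The response of muscle to exenatide differed with the knockdown for 5 members, all lower under it (9.79% of all genes were lower in this test). Psma1 lay at 57.7 to 75.2 CPM in knockdown controls and 50.2 to 65.9 CPM with exenatide and the knockdown, overlapping ranges in which the treated mice were not higher. The interaction was -0.55 ± 0.133 for Psma1 (adjusted p = 0.00448), -0.52 ± 0.124 for Psmc6 (adjusted p = 0.00431) and -0.59 ± 0.163 for the beta-ring gene Psmb1 (adjusted p = 0.0118). It was -0.44 for Psma5 (adjusted p = 0.0202) and -0.41 for Psma3 (adjusted p = 0.0314). The median over members was -0.26, against -0.01 over all genes. Among pathway genes the muscle ubiquitin ligase Trim63 fell with age (-0.68), rose with exenatide (0.74) and had an interaction of -0.95 (adjusted p = 0.00606), while the ubiquitin-activating enzyme Uba1 had values of 0.47, -0.41 and 0.66 ± 0.11 (adjusted p = 0.000233).

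With only the 2 conditions compared in the fit, edgeR called 0 members with age (5 at an unadjusted p below 0.05) and 0 with exenatide (7 at an unadjusted p below 0.05), while DESeq2, with all conditions, called 5 and 9. With no filter on low counts 4 rose with exenatide. Without E13, 6 members fell and 2 rose with age in muscle, 6 rose and 1 fell with exenatide, and 7 had a lower interaction and 1 a higher one. The 5 members that fell with age were 2 without A45, 3 without A47 and 8 without E32, and the 7 that rose with exenatide were 4 without E19 or E23 and 2 without E25. With the length and GC trend removed, Psmc6 and Psma1 changed sign in all 3 comparisons, to 0.16 and 0.01 with age, -0.08 and -0.13 with exenatide, and 0.15 and 0.06 for the interaction. All 5 endothelial markers rose with age, with sums of 138 to 175 CPM against 58.5 to 93.1 CPM in young controls, and all 5 fell with exenatide, with sums of 46.8 to 98 CPM. The part of these in the result was not tested.

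In the LT adipose tissue, aged controls had lower transcripts of lid, ATPase, scaffold and beta-ring genes than young controls, and aged mice given exenatide had higher transcripts of some genes of the same groups than aged controls. With age 18 of 35 members fell (24.7% of all genes fell), with a median of -0.28 against -0.00, and Psma8 rose (26.1% of all genes rose). The members that fell were 6 of 8 lid, 4 of 6 ATPase, 2 of 3 base, 2 of 3 chaperone, 3 of 7 beta and 1 alpha gene. Psmc1, an ATPase, had a lowest, median and highest value of 64.2, 75.3 and 110.1 CPM in 9 aged controls, 110.3, 128 and 147 CPM in 8 young controls and 99.8, 117 and 139 CPM in 8 mice given exenatide. No aged control reached the lowest young control, while the exenatide group overlapped both. It fell by 0.69 ± 0.098 with age (adjusted p = 2.3e-05) and rose by 0.57 ± 0.098 with exenatide (adjusted p = 0.0011).

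Psmb7, the trypsin-like subunit, lay at 50.4, 67.6 and 97.7 CPM in aged controls, 85.3, 103 and 134 CPM in young controls and 86.4, 98.9 and 134 CPM with exenatide, with overlap in both comparisons. It fell by 0.67 ± 0.128 (adjusted p = 0.000291) and rose by 0.65 ± 0.128 (adjusted p = 0.00193). Psmd3, a subunit of the lid, lay at 66.1, 83.2 and 97.1 CPM in aged controls, 106, 116 and 132 CPM in young controls and 88.2, 115 and 145 CPM with exenatide. It fell by 0.49 (adjusted p = 0.000216) without overlap and rose by 0.41 (adjusted p = 0.00411) with overlap. Psmd7, a lid subunit, fell by 0.43 (adjusted p = 0.000161) and rose by 0.29 (adjusted p = 0.01). Psma8 rose by 1.35 ± 0.357 with age (adjusted p = 0.00354), between low mean levels of 0.484 and 1.25 CPM.

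Exenatide raised 8 of 35 members in adipose tissue (10.2% of all genes rose), 3 lid, 2 beta, 1 ATPase, 1 base and 1 chaperone gene, with a median of 0.15 against 0.01. The 8 became 5 without B36. Psmc1 and Psmd3 were the 2 of 35 members whose groups did not overlap with age, as was so for 6.66% of all tested genes. The module mean was 6.28 ± 0.129 (SD, n = 9) in aged controls, 6.54 ± 0.177 (n = 8) in young controls and 6.44 ± 0.169 (n = 8) with exenatide, with overlapping ranges. Within batches 1 and 2 alone (5 libraries a group) 20 members fell with age and 8 rose with exenatide, and within batch 3 alone (4 aged, 3 young and 3 exenatide libraries) none was called by edgeR in either comparison, with 4 and 1 at an unadjusted p below 0.05. Psmc1 had fold changes of -0.83 and -0.53 with age, and 0.73 and 0.35 with exenatide, in these batches in that order.

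Of the pathway list in LT adipose tissue 3 genes rose and 7 fell with age, and 5 rose and 3 fell with exenatide. The ubiquitin receptor Adrm1 fell by 0.72 with age (adjusted p = 0.000201) and rose by 0.76 with exenatide (adjusted p = 0.00113). The polyubiquitin gene Ubb fell by 0.86 and rose by 0.83, and Nfe2l1 fell by 0.57 and rose by 0.44. Uba6, a ubiquitin-activating enzyme, rose by 0.91 with age (adjusted p = 0.000319) and fell by 0.53 with exenatide, and the inducible subunit Psmb8 rose by 0.92 with age. Cell markers moved with age as well. All 7 B and plasma cell markers rose, with sums of 2300 to 8690 CPM in aged against 28.3 to 517 CPM in young controls, and so did 7 of 7 macrophage markers (3930 to 10300 against 1130 to 4730 CPM) and 6 of 6 T and NK cell markers. All 5 adipocyte markers fell (3120 to 10600 against 10900 to 22000 CPM), as did the 5 endothelial and 5 erythroid markers, and with exenatide 4 of 5 adipocyte markers and 5 of 5 erythroid markers rose. Their part in the result was not tested.

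In the LT heart 11 of 35 members fell with age (9.87% of all genes fell), by a small median of -0.14 against -0.02 over all genes. The lid gene Psmd6 had a lowest, median and highest value of 73.6, 82.4 and 97.4 CPM in 9 aged controls and 90.2, 96.0 and 108 CPM in 8 young controls, which overlapped, and fell by 0.23 ± 0.054 (adjusted p = 0.0051). Psmb5 lay at 56.9, 81.8 and 129 CPM in aged and 81.3, 92.2 and 154 CPM in young controls and fell by 0.29 (adjusted p = 0.0117). Psmc6 fell by 0.21 (adjusted p = 0.00859) and the alpha-ring gene Psma3 by 0.29 (adjusted p = 0.0128). The groups overlapped for each of these 4. The 11 became 5 without A54, 6 without B15 or B41 and 7 without A51 or A55. With no filter on low counts 4 fell, with only the 2 conditions compared in the fit 4, and without a batch term 2. Within batches 1 and 2 alone 8 fell and within batch 3 alone none was called by edgeR (6 at an unadjusted p below 0.05), with Psmd6 at -0.24 and -0.20. Psmc6 was at 0.02 with the length and GC trend removed. Of the T and NK cell markers 4 of 5 rose with age, and their part in the result was not tested.

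In the LT colon exenatide lowered 7 of 34 members (6.98% of all genes fell), with a median of -0.38 against -0.04. The ATPase Psmc4 had a lowest, median and highest value of 65.7, 79.6 and 148 CPM in 9 aged controls and 54.9, 60.4 and 67.2 CPM in 8 mice given exenatide, and fell by 0.53 ± 0.131 (adjusted p = 0.0121), with the lowest aged controls inside the exenatide range. Psmd3 fell by 0.39 (adjusted p = 0.0147), Psmb3 by 0.61 (adjusted p = 0.0289) and the ubiquitin receptor Psmd4 by 0.47 (adjusted p = 0.0367). Psmb6 and Psmb7 fell by 0.69 and 0.70. The aged controls spread widely, with a module mean of 6.19 to 7.46 and B24 and B27 at the top, and the exenatide group lay at 6.18 to 6.26. Without B24 and B27, 2 members fell, and with no filter on low counts 3 did. The exenatide library B30, for which 2 of 4 labels name the gastrointestinal tract without naming the colon, had a module mean of 6.195. The 7 became 2 without B13, B14, B25 or B27, 3 without B16, B26 or B28, 4 without B24 and 11 without B15 or B34. Within batches 1 and 2 alone 4 fell and within batch 3 alone none by edgeR (1 at an unadjusted p below 0.05), with Psmc4 at -0.77 and -0.18. The pathway list moved alongside with 4 genes higher and 6 lower, among them Sem1 (-1.17) and Ubb (-1.09).

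Elsewhere 38 single calls were made, and 6 of them held whichever 1 animal was left out: Psma3 in LT white blood cells and Psmd12 in LT frontal cortex with age, Psmd3 in ST heart with age, and Psmb7 in ST frontal cortex, Psmd4 in ST heart and Psmb1 in ST muscle with rapamycin. In the LT liver, all of 1 batch, 35 of 35 tested members had a negative fold change with age, as did 53.03% of all liver genes. Members moved together over these libraries (median correlation 0.83), so the 35 signs are not separate observations. The median over members was -0.33, against -0.02 over all genes. The test called 3 members (2.14% of all genes fell): the caspase-like subunit Psmb6 (-0.61 ± 0.173, adjusted p = 0.0424), Psmb4 (-0.60) and Psma5 (-0.50). The young control A55 stood apart there, and without it Psmb6 was at -0.38 (adjusted p = 0.153). With only the 2 conditions compared in the fit edgeR called 0 (20 at an unadjusted p below 0.05), with no filter on low counts or with DESeq2's size factors 1, and DESeq2 called 8. No liver member was called without A55, A56, A57, B15, B19, B34, B37, B39 or B41, 1 was called without A52, B16 or B27, and 5, 10 and 11 without A53, A58 and A51.

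In the LT kidney Psmd13, Psmb1 and Psmd8 fell with age by 0.20 to 0.23 (2.73% of all genes fell), and exenatide lowered the lid deubiquitinase Psmd14 and the scaffold gene Psmd1 (5.97% of all genes fell). The counts differed between the 2 parts of the cohort. Within batch 3 alone (4 aged, 3 young and 3 exenatide libraries) 10 of 35 members fell with age, where 2.37% of all genes fell, and 22 were at an unadjusted p below 0.05. With exenatide 3 rose and 7 fell there, where 7.22% of all genes rose and 6.7% fell, and 19 members were at an unadjusted p below 0.05. Within batches 1 and 2 alone (5 libraries a group) edgeR called 0 in either comparison, with 2 and 1 at an unadjusted p below 0.05. Of the members called within batch 3, 2 with age and 1 with exenatide were among those called with both parts together. The module mean in batch 3 was 6.15 to 6.28 in aged and 6.44 to 6.52 in young controls, and in batches 1 and 2 it was 6.2 to 6.36 and 6.21 to 6.41. Whether the batches differed was not tested. With only the 2 conditions compared in the fit, or with no filter on low counts, edgeR called 0 with exenatide (8 and 6 at an unadjusted p below 0.05), and DESeq2 called 5 in each comparison. With the length and GC trend removed 7 members fell with age, 0 of them shared with the 3 above, and edgeR called 0 with exenatide (5 at an unadjusted p below 0.05).

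In 6 other comparisons and tissues of the LT cohort 1 member each was called, a share near or below that of all genes in most of them. The lid gene Psmd12 rose with age in frontal cortex (0.24, where 2.94% of all genes rose) and in lung (0.22, 3.64%). With age Psmd7 rose in skeletal muscle (0.34, 5.51%) and Psmb7 in colon (0.85 ± 0.252, adjusted p = 0.029, and 0.53 without B24, where 6.01% of all genes rose). LT exenatide lowered Psmb7 in heart (-0.35, where 1.34% of all genes fell) and raised Psma3 in hypothalamus (0.33, where 3.27% rose). Of these 6 calls, that of Psmd12 in frontal cortex alone held whichever animal was left out.

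In the ST heart, Psmd3 fell with age by 0.67 ± 0.163 (adjusted p = 0.00774) and Psmd11 by 0.35 (13.2% of all genes fell), while Psmd5 and Psmc6 rose (11.5% of all genes rose). Rapamycin raised 4 of 35 members there (13.3% of all genes rose), a share no higher than that of other genes: Psmd4 (0.57 ± 0.106, adjusted p = 0.00104), Psmd3 (0.52), Psmd11 (0.34) and Psmd7. With only the 2 conditions compared in the fit 1 rose, and with the length and GC trend removed 7 rose and 1 fell. Rapamycin also raised Psmb1 (0.58 ± 0.116, adjusted p = 0.00314) and Psmd4 in muscle (5.51% of all genes rose), and Psmb7 (0.32), Psmb5 (0.32), Psmd4 and Psmb1 in frontal cortex (7.81% of all genes rose). With the knockdown Psmb5 (0.37, adjusted p = 0.0363), Psmd4 and Psmc3 rose in frontal cortex (3.28% of all genes rose). In ST adipose tissue and colon edgeR called 0 members over the 6 comparisons, with 4 and 10 tests at an unadjusted p below 0.05 and 1 and 0 calls by DESeq2. LT exenatide in white blood cells gave 0 edgeR calls as well, with 15 of 34 members at an unadjusted p below 0.05 and 7 called by DESeq2. The module mean of LT white blood cells was higher with exenatide by 0.206, with overlapping ranges. In ST white blood cells it differed the other way, by -0.461. For ST exenatide in heart edgeR and DESeq2 called 0, with 15 of 35 members at an unadjusted p below 0.05. The module mean there differed by -0.173, with ranges apart. Groups did not overlap for 10 of the 35 members and 9.69% of all tested genes.

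Between tissues, the level of the module followed the tissue and the scaling. In LT young controls the module mean, with the 12 tissues scaled together, was highest in skeletal muscle (7.30 ± 0.170 SD) and liver (7.11 ± 0.343), then heart (6.77 ± 0.176), kidney (6.44 ± 0.094), adipose tissue (6.38 ± 0.165) and colon (6.15 ± 0.120). Below these came hippocampus (5.85 ± 0.126), hypothalamus (5.83 ± 0.125), frontal cortex (5.76 ± 0.118), spleen (5.66 ± 0.125), lung (5.60 ± 0.126) and white blood cells (5.23 ± 0.043). Neighbours in this order differed by no more than the larger of their SDs for muscle and liver, kidney and adipose tissue, and each pair of neighbours from hippocampus to lung. Scaled by library size alone the range narrowed to between 5.45 in white blood cells and 6.58 in heart, with muscle at 6.54 and liver at 6.29, so the first places depended on the scaling.

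Levels per kilobase (kb) were taken on each gene's longest annotated transcript. The median member in LT young controls lay between 21.5 CPM per kb in white blood cells and 106 CPM per kb in skeletal muscle. In LT liver Psmb4 (271 CPM per kb) and Psmb6 (205 CPM per kb) were highest, in LT skeletal muscle the lid gene Psmd6 (205 CPM per kb) and Psma6 (193 CPM per kb), and in LT hippocampus Psmb4 (74.6 CPM per kb). The leading genes differed between cohorts. In muscle they were Psmd8 (200.2 CPM per kb) and Psmd2 (185.9) in ST young controls and Psmd2 (180.5) and Psmd8 (179.2) in YA controls, and in hippocampus Psmb5 (83.4) in ST and Psmb4 (194.7) in YA. The median member of white blood cells was at 18.4 CPM per kb in ST and 23.04 in YA. Among the 34 members of the module mean, which leave out Psma8 and Psmb11, the lowest was a chaperone in each of the 27 sets. Psmd5 was at 7.61 CPM per kb in LT muscle and 12.2 in LT liver, and Psmd10 at 6.51 in LT hippocampus.

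**Figure D3:**
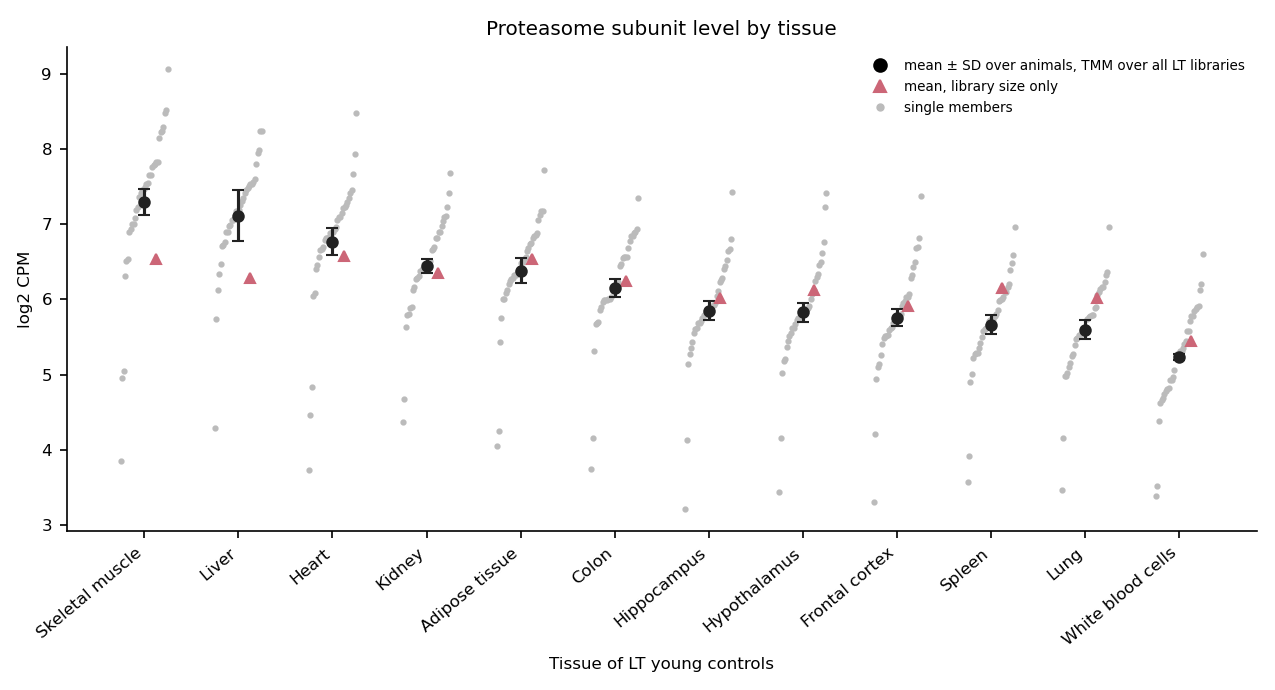
Level of the proteasome subunit genes in log2 CPM (vertical) in 12 tissues of LT young controls (horizontal). Grey points are members, black points the module mean ± SD with TMM scaling and red triangles the module mean scaled by library size alone. Skeletal muscle is highest with TMM scaling (7.30), while by library size alone heart lies at 6.58 and muscle at 6.54.

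Within a tissue the members rose and fell together from library to library, with condition and batch removed. The median correlation of a member with the mean of the other members was 0.82 over the 27 sets, from 0.45 in ST hippocampus to 0.97 in YA hippocampus, while other genes had a median of -0.01. Libraries of a set share tissue, scaling and sequencing, so this is a description. Psmb1 (0.88), Psmc4 (0.87) and Psma7 (0.87) followed the others most closely. The chaperone Psmd5 (-0.01), the scaffold gene Psmd1 (0.08) and Psmd11 (0.35) followed least. Of the genes outside the family, those most alike in LT, by the mean Pearson correlation over 12 tissues, were Cops5 (0.86), Ndufs3 (0.82), Ran (0.81), Cct7 (0.80) and Hint1 (0.80). Over 8 YA tissues they were Tbcb (0.85), Pomp (0.83), Dpcd (0.83), Eef1g (0.82) and Vps28 (0.82), and over 7 ST tissues Atp5o (0.87), Chchd2 (0.86), Atp6v1d (0.86), Atp5h (0.86) and Ndufs3 (0.86).

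Transcript length moved with this shared variation. Length here is that of each gene's longest annotated transcript, which need not be the one a tissue expresses most. By this measure the members are short, with a median of 1851 nt against 3278 nt for the tested genes. Over the libraries of a set, the Pearson correlation of the module mean with the slope on transcript length, condition and batch removed, was below 0 in 27 of 27 sets, with a lowest of -0.98, a median of -0.86 and a highest of -0.10 in LT spleen. Without the 2 libraries farthest in slope these became -0.95, -0.72 and -0.12. Both measures come from the same counts. The 5 longest members were Psmd5 (4397 nt), Psmc2 (3466 nt), Psmd1 (3112 nt), Psmd2 (3001 nt) and Psmd11 (2975 nt). In ST white blood cells their median fold change with age was 0.17, against 0.66 for the other members, and with rapamycin -0.20 against -0.72. In ST hippocampus it was -0.04 against -0.18 with age and -0.04 against 0.17 with exenatide, and in LT colon with exenatide 0.01 against -0.40. In LT adipose tissue it was -0.22 against -0.29 with age and 0.06 against 0.22 with exenatide, and in LT heart with age -0.14 against -0.15. With the trend on length and GC content removed, 13 members fell with age in LT adipose tissue, 10 of them among the 18 above, and 8 fell in LT heart, 7 of them among the 11 above. Psmc3 in adipose tissue (0.12) and Psmc6 in heart (0.02) changed sign. In adipose tissue 4 rose with exenatide, 2 of them among the 8 above, and in colon 4 fell with exenatide, 2 of them among the 7 above. What the slope reflects in these libraries was not tested.

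**Figure D4:**
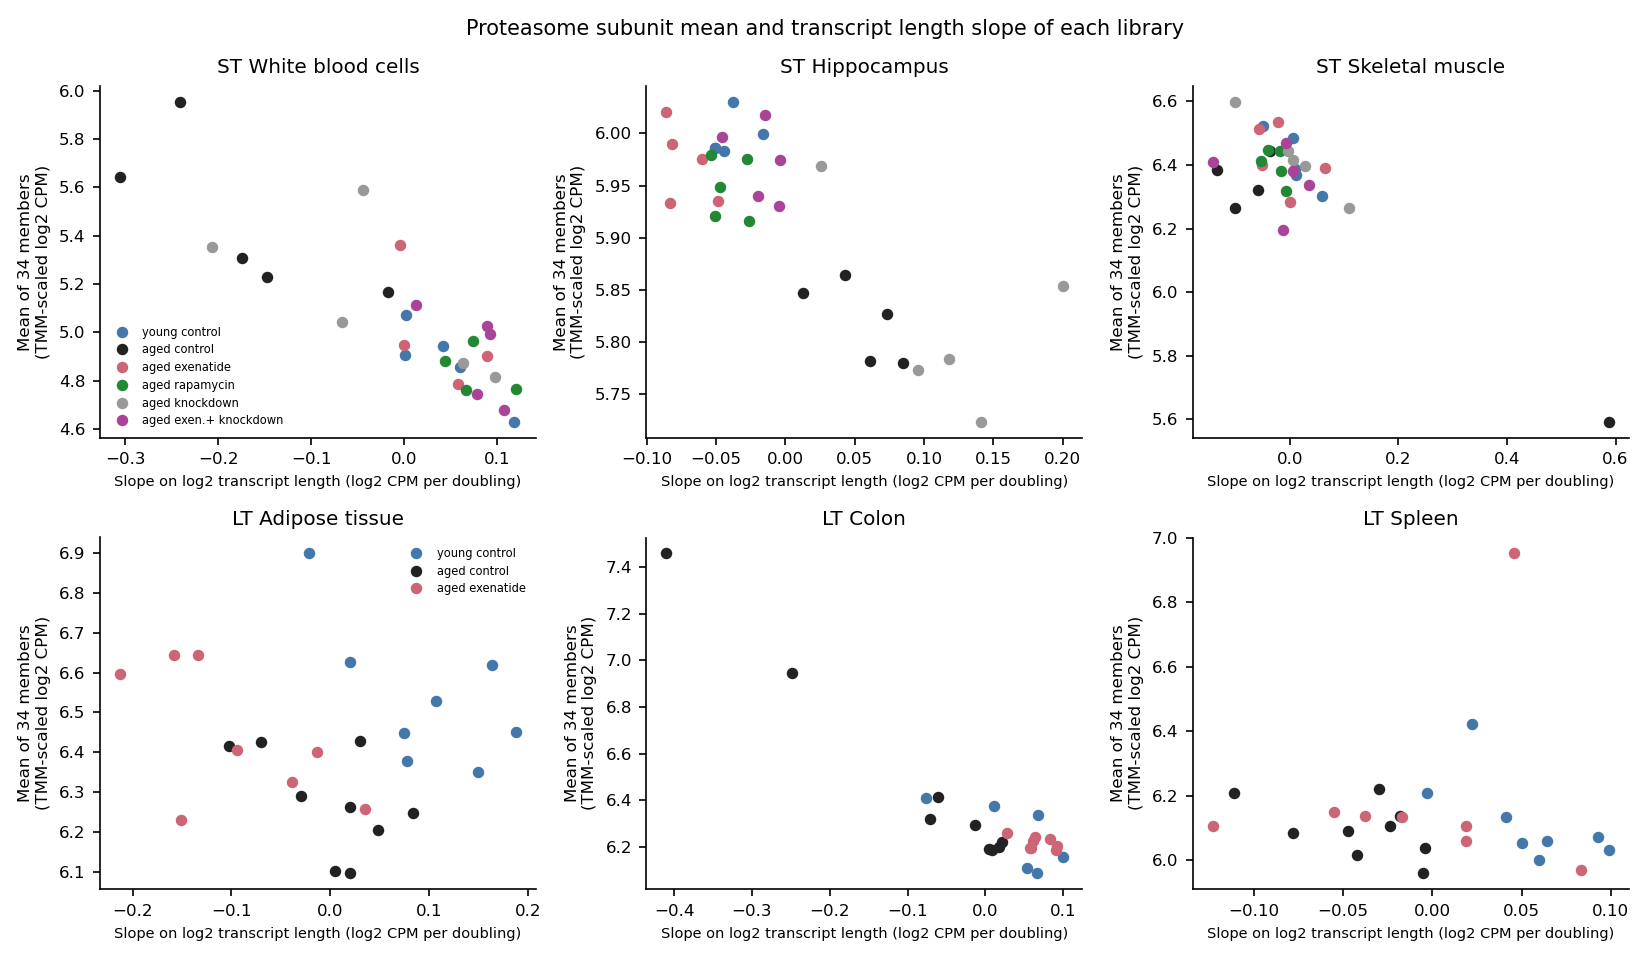
Module mean in log2 CPM (vertical) against the slope of log2 CPM on transcript length, per doubling of length (horizontal), in 6 tissues, ST white blood cells, hippocampus and skeletal muscle and LT adipose tissue, colon and spleen. Points are libraries, coloured by condition. The muscle library E13 stands alone at a slope of 0.588 and a module mean of 5.59.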

How the data were processed

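Bulk poly(A) RNA was sequenced, per the labels' protocols, and the authors deposited 1 table of counts per gene for each cohort. The LT values are whole counts. The YA and ST tables hold estimated counts, as deposited by the authors, with 7.21% and 7.37% of values not whole, and these were rounded. GRCm39 and FastQC 0.11.9 are named in the submitters' processing notes, while the aligner, counter and annotation are not given in the sources used here, nor is how reads shared with near-identical copies were counted. No count column was left unused (0).

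Each tissue of a cohort was fitted with all its conditions in edgeR 4.0.16 (R 4.3.3): filterByExpr by condition, TMM scaling, robust quasi-likelihood F test, a batch term in LT tissues sequenced in 2 parts, and Benjamini-Hochberg adjustment over the tissue's genes at 0.05. Log2 CPM used a prior count of 2. All LT tissues except liver (batch 3) and white blood cells (batch 1) fall in 2 parts, batch 1 or 2 and batch 3, and ST libraries form 1 batch. The test was checked on counts simulated from the means and library sizes of ST hippocampus and LT adipose tissue. All genes were given the same dispersion, with no batch effect, outlying library or length trend, so the check does not cover these. DESeq2 1.42.0 served as an alternative, with other filters, scalings, batches and left-out animals. The trend removal on length and GC content (natural splines with 4 degrees of freedom) and the removal of libraries that stand apart were chosen after seeing the data. Both properties are those of each gene's longest transcript in GENCODE, whichever transcript is expressed.

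The members and all lists were chosen with earlier results of these data known. Per comparison, the genes named are the 4 called members with the smallest adjusted p in each tissue with 5 or more called members, members called the same way in the most tissues, Psmb5, Psmb6, Psmb7, Psma8 and Psmb11, the called pathway genes with the smallest adjusted p, Nfe2l1 and Pomp, and per cohort the 5 most alike genes outside the family. Other genes were named after their values were seen. The titles and descriptions of 2 LT livers (B13 and B14) disagree on the animal. Their columns follow the descriptions, and both mice are in the same condition. For 1 LT exenatide colon (B30) the title and description name colon and the source and tissue labels the gastrointestinal tract. It was analysed as colon.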

Additional observations from a re-analysis of the deposited data

Results flagged for a closer look

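In groups of 4 to 10 libraries, the module mean of 1 library stood far from the rest of its group in 12 of 94 groups, by Dixon's test at its 95% critical value, which chance alone passes in about 1 group in 20. In 9 of the 12 the library's slope on transcript length also lay outside the range of its group. Lower than the rest were ST aged control E13 in skeletal muscle (5.59, against 6.26 to 6.44), YA control A81 in adipose tissue (5.28, against 6.27 to 6.51), YA control A87 in hippocampus (5.97, against 6.54 to 7.02) and YA exenatide A88 in hippocampus (5.52, against 6.58 to 7.19). Their slopes were 0.588, 0.657, 0.47 and 0.892, each above its group. Higher than the rest with a slope below the group were LT young control A55 in liver (7.17, against 6.01 to 6.48), LT exenatide B13 in skeletal muscle (7.04, against 6.45 to 6.7), ST exenatide E31 in colon (6.64, against 5.94 to 6.12), ST rapamycin E28 in colon (7.15, against 6.04 to 6.2) and YA control A41 in heart (6.48, against 6.19 to 6.3). Higher with a slope inside the group's range were LT exenatide B28 in spleen (6.95, against 5.97 to 6.15), ST knockdown control E21 in heart (6.69, against 6.51 to 6.55) and YA exenatide A82 in heart (6.64, against 6.11 to 6.33).

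In ST skeletal muscle, the response to exenatide differed between mice with and without the knockdown by edgeR's interaction test for Psma1 (-0.55), Psma3 (-0.41), Psma5 (-0.44), Psmb1 (-0.59) and Psmc6 (-0.52), on the log2 scale. Psma1, Psma5, Psmb1 and Psmc6 held whichever animal was left out. In the same test 9.79% of all genes were lower. With the length and GC trend removed the sign turned for Psma1 (0.06) and Psmc6 (0.15). The test uses the aged controls of muscle, among which E13 stood apart.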

How the results depend on the processing

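No paired analysis was possible because the replicate labels are animal names and each animal belongs to 1 condition. Counts of called members that moved by over 1.5 times follow by alternative. Such counts stand without the share of all genes in the same fit, as do most of those in the sections above. Without that share they show how the calls moved, and not how members compare with other genes. DESeq2 called 68 with LT age, 37 with LT exenatide, 1 with YA exenatide and 12 with the knockdown. With no filter on low counts, calls were 12 with LT exenatide (3 in colon), 4 in LT heart with age, 16 with ST exenatide (0 in white blood cells, 4 in muscle), 14 in white blood cells with rapamycin and 2 with the knockdown. With only the 2 conditions compared in the fit they were 4 in LT heart, 0 in white blood cells and 0 in muscle with ST exenatide, 0 in muscle with ST age, 12 in white blood cells with rapamycin, 10 with the knockdown and 10 with exenatide under it. With the length and GC trend removed they were 9 with LT exenatide (4 in adipose tissue, 4 in colon), 1 with YA exenatide, 12 in ST white blood cells with age, 1 with exenatide and 5 with rapamycin, and 7 in ST hippocampus with exenatide. Batch 3 alone gave 13 with LT age (10 in kidney, 0 in adipose tissue, 0 in heart) and 11 with LT exenatide (10 in kidney, 0 in adipose tissue, 0 in colon), and batches 1 and 2 alone 4 in colon. Without a batch term LT heart had 2, and with DESeq2's size factors ST white blood cells had 3 with exenatide. Without the libraries that stand apart calls were 25 with the knockdown, 8 for the interaction, 2 in LT colon and 16 in ST white blood cells with exenatide.

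Leaving out each animal in turn gave 31 to 56 calls with LT age (14 to 22 in adipose tissue, 5 to 14 in heart), 9 to 22 with LT exenatide (5 to 9 in adipose tissue, 2 to 11 in colon), 0 to 0 with YA exenatide, 31 to 53 with ST age (11 to 25 in white blood cells, 12 to 15 in hippocampus, 2 to 8 in muscle), 14 to 39 with ST exenatide (0 to 15, 11 to 15 and 2 to 9), 16 to 53 with rapamycin (2 to 27 in white blood cells, 10 to 13 in hippocampus), 1 to 12 with the knockdown, 13 to 19 with exenatide under it (11 to 18 in hippocampus) and 4 to 8 for the interaction (4 to 7 in muscle). No called member changed sign without any 1 animal.

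The sign of 11 single fold changes turned. Removing the length and GC trend gave Psmc6 0.02 in LT heart with age, Psmc3 0.12 in LT adipose tissue with age, Psma1 0.01 and Psmc6 0.16 in ST muscle with age, Psmc6 -0.08, Psma1 -0.13 and Psmd6 0.00 in ST muscle with exenatide, Psmc6 0.15 and Psma1 0.06 for the interaction and Psmd6 0.00 in ST hippocampus with exenatide. Batch 3 alone gave Psmb7 0.02 in LT colon with exenatide. Scaled by library size alone, the module mean differed with ST age by 0.854 in white blood cells, -0.155 in hippocampus and -0.322 in muscle. In some other comparisons this scaling turned the sign. Among them, YA exenatide in white blood cells went from -0.054 with TMM scaling to 0.689. LT age went from 0.002 to -0.229 in white blood cells and from 0.107 to -0.002 in muscle. Over core particle genes alone the module mean differed with ST age by 0.766 in white blood cells and -0.271 in hippocampus. In ST hippocampus it differed by 0.289 with exenatide, 0.309 with exenatide under the knockdown and 0.224 with rapamycin. By library size alone the LT levels were 6.54 in muscle, 6.29 in liver, 6.58 in heart, 6.02 in hippocampus, 6.12 in hypothalamus, 5.91 in frontal cortex, 6.15 in spleen, 6.03 in lung and 5.45 in white blood cells. The cause of these shifts was not tested.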
